A study of Mus musculus with 79 samples.

Results

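The genes described here lie in a 4055 kb segment of mouse chromosome 11 (mm10), in which the first gene starts at base 58171654 and the last at base 62077024. They were taken from the deposited table of the E14 time course with 1 transcript kept per gene, the transcript with the highest mean signal, and the same transcript was then read in the other 2 tables. The segment held 156 transcripts of 93 genes, out of 19526 genes in all. These first and last genes are Mrpl22 and Specc1. The segment had been picked because its genes were lower in the 2 deletion clones than in the wild-type clone, so the levels of those clones against the wild-type clone are given as a description. Counts of calls in that contrast are printed beside them and support nothing.

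All samples were mouse embryonic stem cells of the E14 line or a derivative, grown on gelatin in serum with leukemia inhibitory factor, and differentiated with 1 uM retinoic acid (RA). The clone samples were nuclear RNA from wild-type clone G4 (genotype E14;HoxTransEwt) and from clones E3 and H12 (both E14;HoxTransEdel), which lack an enhancer in the Hoxb locus, before RA and after 2, 4, 6, 24, 48 and 74 h of RA, with 2 libraries each. Wild-type E14 total RNA was sampled at 0 h (n = 2), 24 h (n = 3) and 2, 4, 6, 48 and 72 h (n = 4 each; the last time point is also labelled 74 h). Nuclear RNA of the SCC1-mAID line (E14;Rosa26::Tir1;Scc1-mAID-eGFP), in which auxin degrades the cohesin subunit SCC1, came from untreated cells, 4 h of RA, 6 h of 500 uM auxin, and both, with 3 libraries each. Each clone group is 1 clone, so a difference between clones and a difference between genotypes cannot be told apart, and the removed enhancer has no transcript with which to check the genotype.

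Genes that neighbour each other on a chromosome can share a dosage: when a stretch of DNA is gained or lost in a line, the RNA of most of its expressed genes moves by a similar factor whatever those genes do. Mouse embryonic stem cell clones are known to pick up such changes in culture. Only a part of this segment, the part around Rai1, corresponds to the human region lost in Smith-Magenis syndrome and gained in Potocki-Lupski syndrome. There Rai1, a nuclear regulator of transcription, is the gene best known to be sensitive to its dose. The segment as a whole also carries Flcn, a regulator of nutrient signalling at the lysosome, and Srebf1, a master regulator of lipid synthesis. The ligands Wnt3a and Wnt9a and a small group of histone genes lie in it too, outside the part around Rai1.

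Promoter sequences of 4 members are shown because their RNA separates the patterns described below. Wnt9a and Rai1 had a lower level in H12 than in E3, Ulk2 rose strongly with RA in both wild-type sets, and Atpaf2 had nearly the same level in both deletion clones. They are the 250 bases before the RefSeq start on GRCm38.p6, read 5′ to 3′ on the gene's strand. Capitals mark a GC box (GGGCGG or its reverse CCGCCC) and a nuclear receptor half-site (AGGTCA or its reverse TGACCT).
Wnt9a: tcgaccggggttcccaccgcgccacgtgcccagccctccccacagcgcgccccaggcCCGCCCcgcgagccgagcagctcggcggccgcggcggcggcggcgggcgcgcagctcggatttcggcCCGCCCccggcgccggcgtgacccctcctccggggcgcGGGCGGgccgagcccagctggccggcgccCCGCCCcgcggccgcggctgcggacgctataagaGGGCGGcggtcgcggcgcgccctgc
Rai1: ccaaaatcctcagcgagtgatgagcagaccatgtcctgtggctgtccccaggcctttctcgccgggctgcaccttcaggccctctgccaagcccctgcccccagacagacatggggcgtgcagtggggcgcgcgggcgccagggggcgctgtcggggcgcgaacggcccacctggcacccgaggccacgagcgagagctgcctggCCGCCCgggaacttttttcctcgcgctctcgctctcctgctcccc
Atpaf2: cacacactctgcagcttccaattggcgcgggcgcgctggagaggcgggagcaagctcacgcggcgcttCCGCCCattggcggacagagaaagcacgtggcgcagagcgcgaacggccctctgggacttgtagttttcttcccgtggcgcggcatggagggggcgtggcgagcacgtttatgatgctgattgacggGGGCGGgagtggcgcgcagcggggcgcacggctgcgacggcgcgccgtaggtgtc
Ulk2: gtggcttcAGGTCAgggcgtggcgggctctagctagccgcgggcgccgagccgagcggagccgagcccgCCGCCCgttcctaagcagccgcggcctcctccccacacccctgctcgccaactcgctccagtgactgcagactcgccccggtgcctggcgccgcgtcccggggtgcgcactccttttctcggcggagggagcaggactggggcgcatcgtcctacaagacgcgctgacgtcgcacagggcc
These windows lie at chr11:59306680-59306929 (plus strand) for Wnt9a, chr11:60104763-60105012 (plus strand) for Rai1, chr11:60417035-60417284 (minus strand) for Atpaf2 and chr11:61855093-61855342 (minus strand) for Ulk2. The Wnt9a window held 5 GC boxes, that of Atpaf2 held 2, and those of Rai1 and Ulk2 held 1 each. The Atpaf2 window was set by another RefSeq start than that of the measured transcript, which begins inside it at base 60417099. The last bases of that window, with 1 of its 2 GC boxes, therefore lie within the measured transcript. The window also holds the start of Gid4, on the plus strand at base 60417145. Only the Ulk2 window, among these 4, held a half-site. Of the 93 members, 69 had a RefSeq promoter within 100 bases of their listed start, and 40 of those 69 (58.0%) held a GC box, against 32.7% of 32851 mouse promoters. A half-site was found in 10 of the 69 (14.5%), against 14% of all promoters. A match of letters is a description of the sequence, not evidence of binding.

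The clone libraries held 4730656 to 10397054 recovered reads, the E14 libraries 2352131 to 21082293, and the SCC1-mAID libraries 3119499 to 7477607. After removal of genes with few reads, 75 of the 93 members could be tested in the clones, 73 in E14 and 73 in SCC1-mAID. The members without enough reads in the clones included the olfactory receptors Olfr328, Olfr316 and Olfr329-ps, the microRNA Mir5100, the inflammasome sensor Nlrp3 and the small G protein Rasd1, so nothing is said of their dosage. Levels are given as CPM, counts scaled to a fixed library size. All 8 embryonic stem cell markers examined were measured, and their summed level at 0 h was 2150 to 2260 CPM in G4, 1970 to 2010 CPM in E3 and 2500 CPM in both H12 libraries, and at 74 h it was 108 CPM in both G4 libraries, 75.2 to 155 CPM in E3 and 175 to 283 CPM in H12. Endoderm markers (all 5 of 5 measured) summed to 40.4 to 64.9 CPM in G4, 63.7 to 77.7 CPM in E3 and 294 CPM in both H12 libraries at 74 h. Fibroblast markers (5 of 5 measured) summed to 128 to 225 CPM in G4, 395 to 412 CPM in E3 and 374 to 542 CPM in H12 at that time. At 0 h they summed to 39.7 to 42.5 CPM in G4, 27.6 to 37.8 CPM in E3 and 16.7 to 20.7 CPM in H12. Over all times the median log2 ratio of fibroblast markers to G4 was 0.11 in E3 and -0.87 in H12. Neural progenitor markers (4 of 4) summed to 67.8 to 134 CPM in G4, 37.2 to 106 CPM in E3 and 26.1 to 28.7 CPM in H12 at 0 h, and at 74 h to 283 to 292 CPM in G4, at most 255 CPM in E3 and 288 to 486 CPM in H12. Over all times their median log2 ratio to G4 was -0.79 in E3 and -0.89 in H12. Both medians draw on Neurog2, whose ratio could not be estimated (standard errors of 1987.38 in E3 and 1612.27 in H12). Nothing is therefore read from them. The other markers did not move together. Pax6 had -0.77 in E3 and -1.27 in H12, Sox1 had -1.21 and 0.37, and Nes had -0.25 and -1.79. Trophoblast markers (2 of 5 measured) summed to 22.6 to 32.3 CPM in G4, 27.0 to 31.7 CPM in E3 and 15.4 to 19.3 CPM in H12 at 0 h, and to at most 9.68 CPM in any clone library at 74 h. These marker differences move with the clone, and their part in the clone comparisons was not tested. In bulk RNA, fewer cells of a type and less RNA per cell cannot be told apart.

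Both deletion clones held less RNA of the segment than G4. In E3 the median member stood at a log2 ratio to G4 of -0.50, a ratio of 0.71, and 74 of 75 members were below 0. In H12 the median was -0.47, a ratio of 0.72, with 70 of 75 below 0. The lower and upper quartiles of the members were -0.63 and -0.41 in E3, and -0.59 and -0.32 in H12. For scale, a ratio of 1 copy to 2 is -1 on this log2 scale and a ratio of 2 copies to 3 is -0.58. DNA was not measured in these samples, and copy number was not tested. Both comparisons use the same G4 libraries, so the 2 sets of values are given side by side and not as independent.

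**Figure D1:**
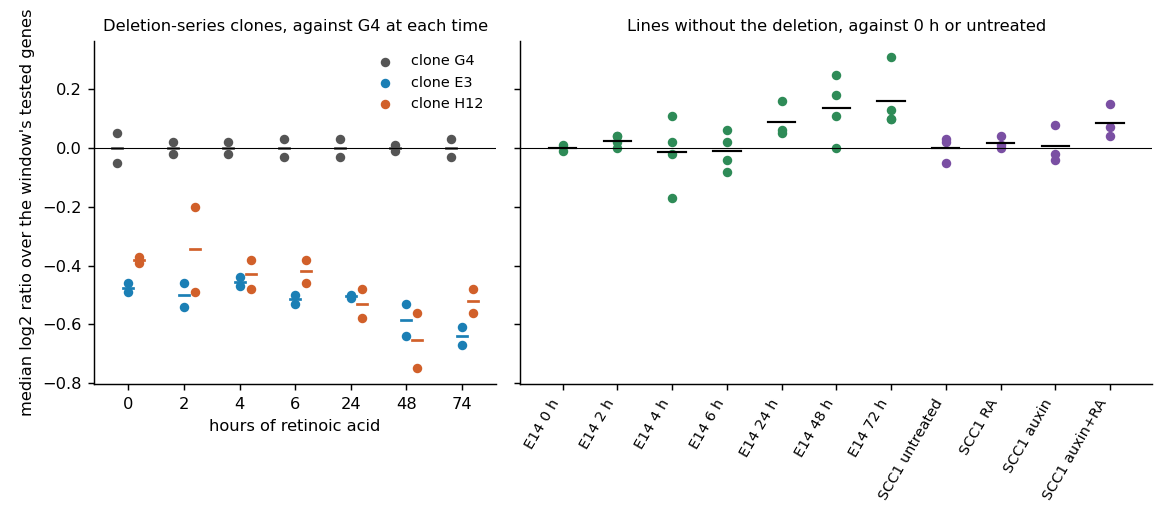
Median log2 ratio over the tested segment members in each library (vertical axis). Left, clones G4, E3 and H12 by hours of RA, against the G4 mean at the same time, so that the G4 pair is symmetric by construction. Right, E14 against its 0 h mean and SCC1-mAID against its untreated mean. Dots are libraries and short lines are group means. E3 libraries lie from -0.67 to -0.44 and H12 libraries from -0.75 to -0.20, below the G4 libraries at -0.05 to 0.05.

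The lower level was seen in single libraries and not only in means. Over its 14 libraries, the segment median of E3 was -0.67 at the lowest, -0.50 at the middle and -0.44 at the highest. For H12 the same 3 values were -0.75, -0.48 and -0.20. Neither range touched that of G4, from -0.05 to 0.05. Each G4 library was set against the mean of its own pair, which keeps that range narrow by construction. This contrast also chose the segment, so the gap is a description. Medians of the flank below the segment, described later, were also apart from G4 (-0.39 to -0.25 in E3, -0.48 to -0.20 in H12). Those of the flank above overlapped G4 in both clones. H12 segment medians varied more between libraries (SD 0.13) than those of E3 (SD 0.07). The E14 and SCC1-mAID libraries did not enter the choice of the segment, but each set is centred on its own starting group, so its medians show change within the set and not dosage. They ran from -0.17 to 0.31 across E14 against its 0 h mean, and from -0.05 to 0.15 across SCC1-mAID against its untreated mean.

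The difference was already present before RA and at every later time. From 0 to 74 h the E3 medians were -0.46, -0.48, -0.49, -0.52, -0.52, -0.51 and -0.62. The H12 medians at those times were -0.41, -0.39, -0.40, -0.43, -0.52, -0.65 and -0.54. In E3, the share of members with both libraries below both G4 libraries was lowest at 0 h, with 48 of 75 (64.0%, against 16.8% of all genes), and highest at 74 h, with 63 of 75 (84.0%, against 26.8%). In H12 it was lowest at 2 h, with 44 of 75 (58.7%, against 24.1%), and highest at 24 h and 48 h, with 59 of 75 at each (78.7%, against 27.8% and 28.2%). Averaged over the times, 62 of 75 members (82.7%) were lower at an adjusted p under 0.05 in E3, where 12.8% of all genes were called and 6.81% were called lower. In H12, 59 members (78.7%) were lower and 2 were higher, against 44.5% of all genes called and 22.1% called lower. Nothing is read from these counts, since this contrast chose the members.

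By single time, 8 of 75 members (10.7%) were called lower in E3 at 0 h, where 0.295% of all genes were. The count was 13 (17.3%, against 0.327% of all genes) at 24 h and 32 (42.7%, against 2.99%) at 74 h. In H12, 19 members (25.3%) were called lower at 0 h, against 7.11% of all genes, and 37 (49.3%) at 74 h, against 12.4%. These counts too come from the contrast that chose the members, and nothing is read from them.

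**Figure D2:**
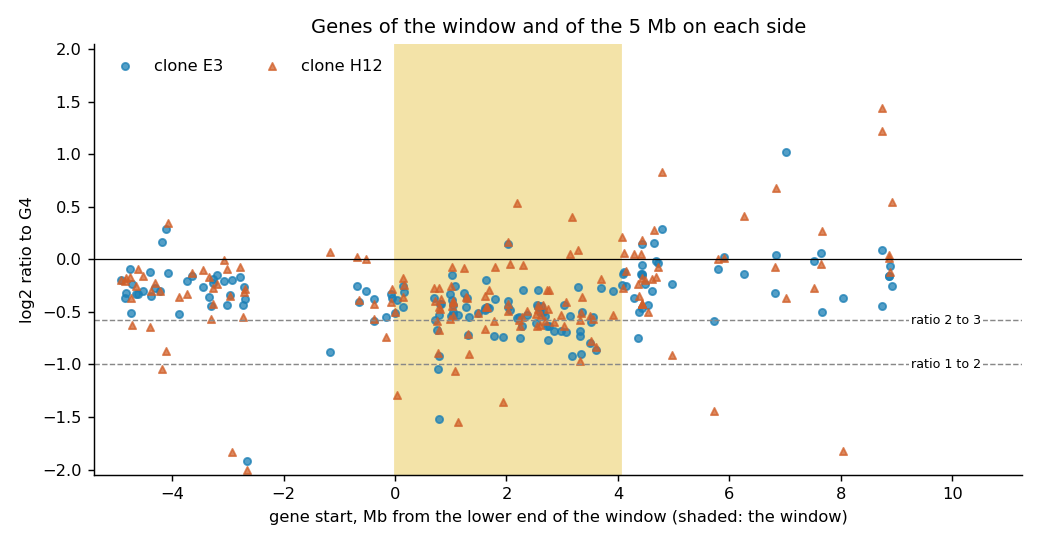
Log2 ratio to G4 (vertical axis, mean of 7 times) of each tested gene of the segment, shaded and called the window in the plot, and of the 5 Mb on each side, by gene start in Mb from the segment's lower end. Circles are E3 and triangles are H12. Dashed lines mark log2 of the ratios 1 to 2 and 2 to 3, and points beyond 2 are drawn at 2. Segment members centre on -0.50 in E3 and -0.47 in H12, genes below on -0.30 and -0.28, and genes above on -0.14 and -0.07.

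The 5 Mb on either side served as the local control, and they differed from each other. The 43 tested genes of the flank below the segment had a median of -0.30 in E3 and -0.28 in H12. The 38 tested genes of the flank above had a median of -0.14 in E3 and -0.07 in H12. Averaged over the times, the flank below was thus itself lower than G4, while the flank above was nearer to the genes of other autosomes, whose medians were 0.01 in E3 and 0.02 in H12.

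By time the flanks did not keep this order. From 0 to 74 h the flank below had medians of -0.25, -0.28, -0.35, -0.30, -0.35, -0.33 and -0.31 in E3, and -0.24, -0.27, -0.34, -0.28, -0.40, -0.29 and -0.29 in H12. The flank above had -0.07, -0.14, -0.19, -0.17, -0.15, -0.28 and -0.33 in E3, and -0.01, -0.08, -0.06, 0.02, -0.06, -0.06 and -0.44 in H12. At 74 h the flank above was therefore as low as the flank below in E3 and lower than it in H12. The segment median was below both flank medians at each of the 7 times in both clones. The segment was chosen for its low values, so this order is a description. The values were nearest in H12, at 4 h (-0.40 against -0.34 in the flank below) and at 74 h (-0.54 against -0.44 in the flank above).

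In the means over times, the shift below the segment went on toward the start of the chromosome. Over the 271 chromosome 11 genes below that flank the median was -0.25 in E3 and -0.27 in H12. Over the 834 genes above the upper flank it was -0.01 in E3 and 0.01 in H12. In bins of 4 Mb, 14 of 14 bins below the segment had a median under -0.1 in E3 and 13 of 14 in H12, and 0 of 14 bins from 8 Mb above its lower end did so in either clone. The other 18 autosomes had medians from -0.02 to 0.03 in E3 and from -0.02 to 0.08 in H12. The bins were counted from the segment's lower end, so 1 of them held all 75 tested members. That bin was the lowest in both clones, which the choice of the segment for low values favours, so its rank is a description. The lower level was not confined to that bin. The bins and these wider regions were chosen after the values of the flanks had been seen. Hoxb1 and Hoxb13, the ends of the gene cluster whose enhancer was removed, start 34.1 and 34.0 Mb above the segment's upper limit, in the part of the chromosome with medians near 0.

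**Figure D3:**
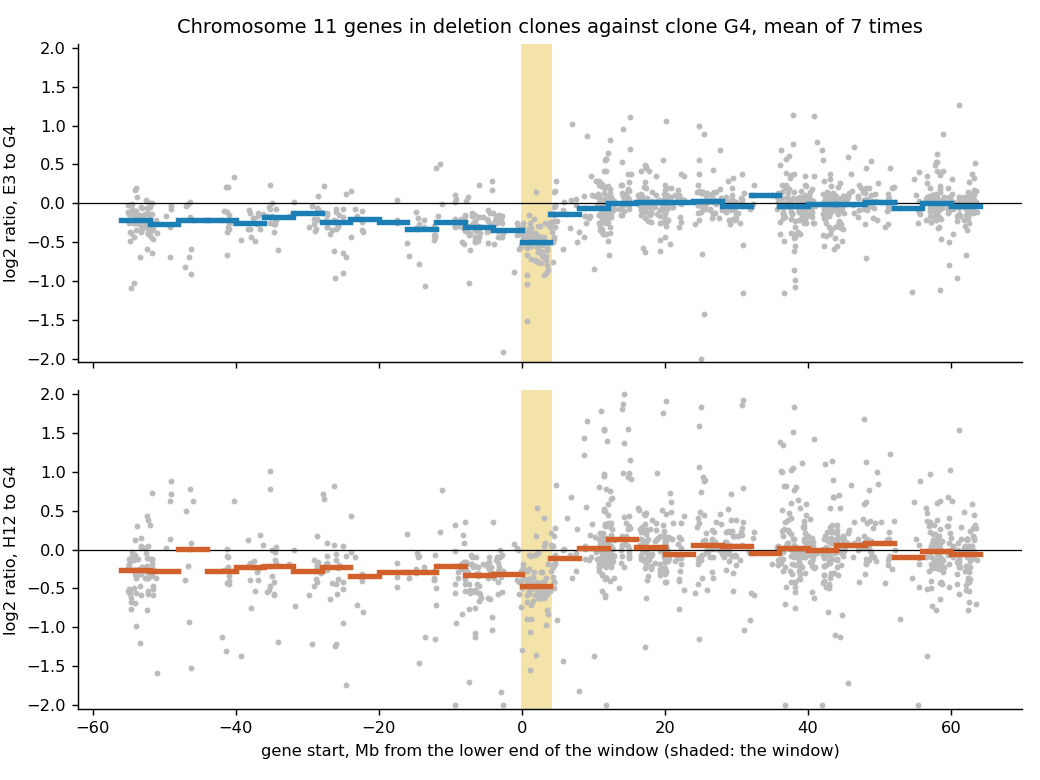
Log2 ratio to G4 (vertical axis, mean of 7 times) of every tested chromosome 11 gene, as grey points, by gene start in Mb from the segment's lower end, for E3 above and H12 below. Coloured bars are medians in bins of 4 Mb, the segment is shaded, and points beyond 2 are drawn at 2. Bin medians below the segment lie from -0.34 to -0.12 in E3 and from -0.34 to 0.01 in H12, and bins from 8 Mb above its lower end from -0.06 to 0.10 and from -0.09 to 0.14.

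The lower limit of the segment did not mark a step in the data. Just outside it, Gemin5, which recognises small nuclear RNAs for the SMN complex, had log2 ratios of -0.37 in E3 and -0.28 in H12. Next to it, Cnot8, a deadenylase subunit, had -0.33 and -0.41, and Larp1, a binder of ribosomal protein mRNAs, had -0.55 and -0.74. Just inside, the mitochondrial ribosomal protein gene Mrpl22 had -0.51 and -0.50, and the zinc finger gene Zfp692 had -0.25 and -0.36. These inside and outside values overlap.

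Beyond the upper limit most values, averaged over times, were nearer to 0. Inside it, the autophagy kinase gene Ulk2 had log2 ratios of -0.86 in E3 and -0.83 in H12, the kinase anchor gene Akap10 had -0.27 and -0.19, and Specc1 had -0.30 and -0.53. Outside it, the adenosine receptor gene Adora2b had -0.24 and 0.21, Zswim7 had -0.14 and -0.27, and Ttc19, which supports respiratory complex III, had -0.12 and 0.06. The corepressor gene Ncor1 followed with -0.25 and -0.11. Farther out, Cenpv had -0.75 in E3 and -0.23 in H12, so single genes above the segment reached segment-like values in E3.

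Members were spread around the segment median, more widely in H12 and among genes with few reads. The SD of the log2 ratios over members was 0.23 in E3, with extremes of -1.52 and 0.15, and 0.34 in H12, with extremes of -1.55 and 0.54. Among the 56 members with a mean of at least 10 CPM in G4, the SD was 0.17 in E3 and 0.29 in H12, with medians of -0.52 and -0.47. The lower part of the segment had medians of -0.46 in E3 and -0.45 in H12, and the upper part had -0.55 and -0.50. Of the 75 members, 15 overlap another gene on the chromosome, where reads can be shared. Without them, the medians over 60 members were -0.50 in E3 and -0.44 in H12.

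The members farthest below 0, by the mean of both clones and among those with a G4 mean of at least 1 CPM, were Rai1, Wnt9a, Hist3h2ba, Mfap4 and Ulk2. Hist3h2ba encodes a histone H2B, and its level over 14 libraries (lowest, median, highest) was 9.30, 15.4 and 48.1 CPM in G4, 4.60, 6.81 and 28.7 CPM in E3, and 4.44, 8.88 and 21.1 CPM in H12. The pooled ranges overlap because the gene rose with RA, yet at each time both libraries of each deletion clone were below both of G4. The log2 ratios were -1.04 in E3 and -0.89 in H12. Trim17, with a G4 mean of 0.842 CPM, had the lowest E3 ratio of all (-1.52, and -0.27 in H12). Mfap4, which encodes a microfibril-associated glycoprotein of the extracellular matrix, had -0.73 and -0.97. At the other end, Myo15 (-0.29 in E3 and -0.05 in H12), 2610507I01Rik (-0.15 and -0.07), Rnf112 (-0.26 and 0.09), Drc3 (-0.56 and 0.54) and Mir6921 (0.15 and 0.17) were nearest to or above G4. Apart from Myo15 and Drc3, these last genes had a G4 median of at most 1.31 CPM, and Mir6921 lies within Srebf1, so its reads cannot be told apart from those of that gene.

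The most abundant members per length in G4 at 0 h were the histone genes Hist3h2a at 117 CPM per kb and Hist3h2ba at 30.1 CPM per kb. Mir6922, again inside Srebf1, followed at 18.5 CPM per kb, and then came the ubiquitin ligase gene Rnf187 at 10.3 CPM per kb and Srebf1 at 9.92 CPM per kb. Their log2 ratios to G4 were -0.53 in E3 and -0.45 in H12 for Hist3h2a, -0.67 and -0.59 for Rnf187, and -0.45 and -0.42 for Srebf1. Apart from Hist3h2ba, whose ratios are given above, these abundant genes stood near the segment median.

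Grouped by role, all tested members of each of the 7 role lists below were under 0 in both clones. The 2 Wnt ligands had a median log2 ratio of -0.39 in E3 and -1.31 in H12. The 8 genes of lipid, nucleotide and one-carbon metabolism had -0.44 and -0.43, the 4 mitochondrial genes -0.43 and -0.52, and the 8 genes of autophagy and trafficking -0.50 and -0.45. The 15 genes of chromatin, transcription and genome stability had -0.53 and -0.45, and the 9 tested genes of signalling, polarity and cytoskeleton -0.51 and -0.52. Of the immune genes only the interferon-inducible GTPase gene Igtp could be tested, at -0.39 and -1.29. Apart from the Wnt ligands and Igtp in H12, the role medians lay close to that of the whole segment.

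Among metabolic members, Srebf1 ranged from 169 to 329 CPM in G4 (median 245), from 122 to 332 CPM in E3 (median 177) and from 128 to 290 CPM in H12 (median 178). The pooled ranges overlap widely, and the log2 ratios of -0.45 and -0.42 describe the means. Shmt1, which makes one-carbon units from serine, had -0.44 in E3 and -0.53 in H12. Aldh3a2, the fatty aldehyde dehydrogenase gene, had -0.69 and -0.41, and Guk1, the guanylate kinase gene, had -0.39 and -0.44. Pemt, which methylates phosphatidylethanolamine, had -0.38 in E3 and -0.07 in H12.

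Mitochondrial members were close together. Atpaf2, an assembly factor of ATP synthase, ranged from 35.8 to 51.0 CPM in G4 (median 46.9), from 22.1 to 38.8 CPM in E3 (median 31.1) and from 22.4 to 39.4 CPM in H12 (median 32.3). Its E3 and H12 ranges nearly coincide, and both lie mostly below that of G4. The log2 ratios were -0.55 in E3 and -0.58 in H12. Mrpl55, of the mitochondrial ribosome, had -0.53 and -0.41, Mief2, which acts in mitochondrial fission, -0.29 and -0.47, and Iba57, of iron-sulfur cluster assembly, -0.33 and -0.57.

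In the nutrient signalling and trafficking group, Flcn ranged from 45.4 to 69.4 CPM in G4 (median 56.9), from 32.8 to 55.9 CPM in E3 (median 39.4) and from 28.6 to 61.7 CPM in H12 (median 42.8). The ranges overlap, with the medians of both deletion clones below the lowest G4 library. Smcr8, a partner of C9orf72 in autophagy, had -0.50 in E3 and -0.62 in H12. The ARF1 GTPase gene Arf1, which organises Golgi traffic, had -0.50 and -0.54, and Gid4, which recognises substrates of the GID ubiquitin ligase, had -0.75 and -0.63. Tom1l2, an adaptor of endosomal traffic, had -0.48 in E3 and -0.04 in H12.

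Chromatin and signalling members named here all had lower values in both deletion clones than in G4. Usp22, the deubiquitinase of the SAGA complex, had -0.68 in E3 and -0.53 in H12. Alkbh5, an eraser of N6-methyladenosine, had -0.53 and -0.49, Top3a, a topoisomerase, had -0.45 and -0.43, and Cops3, of the COP9 signalosome, had -0.45 in each. Mapk7, which encodes the kinase ERK5, had -0.68 and -0.58, the polarity gene Llgl1 had -0.61 and -0.52, and Mprip, which targets myosin phosphatase, had -0.51 in each.

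The comparison of E3 with H12 does not use the G4 levels. It was tested in the fit of all 15913 genes (edgeR quasi-likelihood test, Benjamini-Hochberg adjusted over all genes). The G4 libraries still entered the filter, the scaling and the shared estimate of spread in that fit. Of 75 members, 21 differed at an adjusted p under 0.05, or 28.0%, where 40.8% of all genes did. H12 was lower for 7 and E3 for 14. The absolute difference reached 0.5 on the log2 scale for 8 of the 21. The labels of the clone samples do not say whether the 2 libraries of a group came from separate cultures, so these p-values measure only the spread between these libraries.

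**Figure D4:**
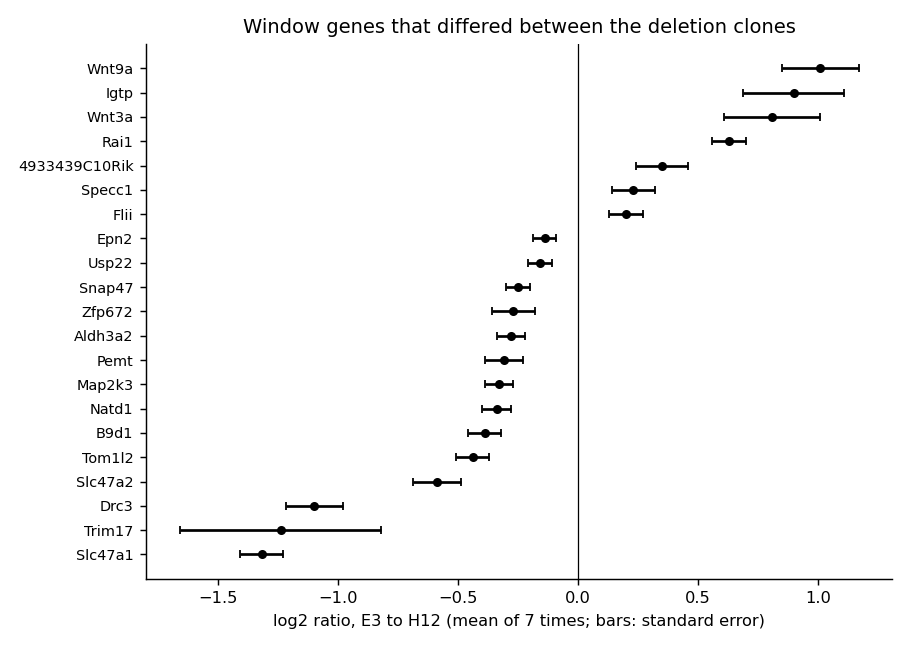
Log2 ratio of E3 to H12 (horizontal axis, mean of 7 times) for the 21 members that differed at an adjusted p under 0.05, sorted by value. Points are fitted ratios and bars are standard errors. Slc47a1 is the lowest at -1.32 and Wnt9a the highest at 1.01, with 14 members below 0 and 7 above.

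Slc47a1, which encodes a kidney and liver exporter of organic cations, showed the clearest difference. At 0 h its levels were 53.8 and 53.4 CPM in G4, 23.5 and 20.1 CPM in E3, and 64.7 and 82.5 CPM in H12. At 6 h they were 45.7 and 61.2 CPM in G4, 22.7 and 27.6 CPM in E3, and 68.7 and 64.4 CPM in H12. At these times H12 lay above G4 and E3 below it, with no overlap between the deletion clones. E3 was lower than H12 by a log2 difference of -1.32 ± 0.09 (SE, 14 libraries each, adjusted p = 4.17e-13). Its neighbour Slc47a2, a transporter of the same family, also was lower in E3 (-0.59 ± 0.10, adjusted p = 8.93e-06).

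Rai1 differed the other way. At 0 h its levels were 240.0 and 258 CPM in G4, 181 and 175 CPM in E3, and 76.0 and 75.1 CPM in H12. At 74 h they were 650.0 and 814 CPM in G4, 363 and 328 CPM in E3, and 274 and 377 CPM in H12. Thus H12 was below E3 in each library at 0 h, and the 2 overlapped at 74 h. Averaged over times E3 was higher than H12 by 0.63 ± 0.07 (adjusted p = 2.52e-09). Rai1 overlaps the end of Srebf1 on the other strand, and Srebf1 itself differed by -0.03 ± 0.09 (adjusted p = 0.842).

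Wnt9a, a Wnt ligand with roles in joint and skeletal development, showed the same direction. Its 0 h levels were 12.2 and 7.28 CPM in G4, 8.60 and 3.94 CPM in E3, and 2.83 and 1.15 CPM in H12. At 74 h they were 36.0 and 28.2 CPM in G4, 35.7 and 29.4 CPM in E3, and 19.2 and 21.1 CPM in H12. H12 was the lowest clone at both times, and E3 reached the level of G4 at 74 h. The mean difference was 1.01 ± 0.16 (adjusted p = 5.80e-06), and for its neighbour Wnt3a, a ligand of canonical Wnt signalling, it was 0.81 ± 0.20 (adjusted p = 0.00136).

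Drc3, a gene of the ciliary dynein regulatory complex, was low in all clones. At 0 h it had 3.75 and 4.21 CPM in G4, 5.05 and 3.94 CPM in E3, and 8.37 and 6.89 CPM in H12. H12 was the highest clone there, and E3 overlapped G4. E3 was lower than H12 by -1.10 ± 0.12 over all times (adjusted p = 7.94e-09). Igtp was higher in E3 (0.90 ± 0.21, adjusted p = 0.000962).

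Smaller differences with E3 lower were found for Tom1l2 (-0.44), the ciliary gene B9d1 (-0.39), Natd1 (-0.34), the MAP kinase kinase gene Map2k3 (-0.33), Pemt (-0.31), Aldh3a2 (-0.28), Zfp672 (-0.27), the SNARE-related gene Snap47 (-0.25), Usp22 (-0.16) and Epn2 (-0.14), an endocytic adaptor. Trim17 also was lower in E3 (-1.24), at a G4 median of 0.634 CPM. H12 was lower for 4933439C10Rik (0.35), Specc1 (0.23) and Flii (0.20), an actin-binding regulator.

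RA changed the members in the wild-type libraries to about the same extent as other genes. The E14 libraries had no part in choosing the segment. Those of G4 served as its reference there, and here they are compared only among themselves. In G4, 25 members rose and 14 fell between 0 and 74 h, or 52.0% of 75, against 56.2% of all genes (28.8% rose and 27.4% fell). Without G4 replicate 1 the total was 24 rather than 39. In E14, 29 members rose and 17 fell between 0 and 72 h, or 63.0% of 73, against 59.7% of all genes (30.4% rose and 29.3% fell). With the authors' own scaling 34 rose and 10 fell in E14, while that scaling moves the median of all genes by 0.27 on the log2 scale. At 24 h in E14, 11 rose and 7 fell (24.7%, against 27.4% of all genes, 14.1% higher and 13.3% lower), and at 48 h 41 changed (56.2%, against 55.7%).

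**Figure D5:**
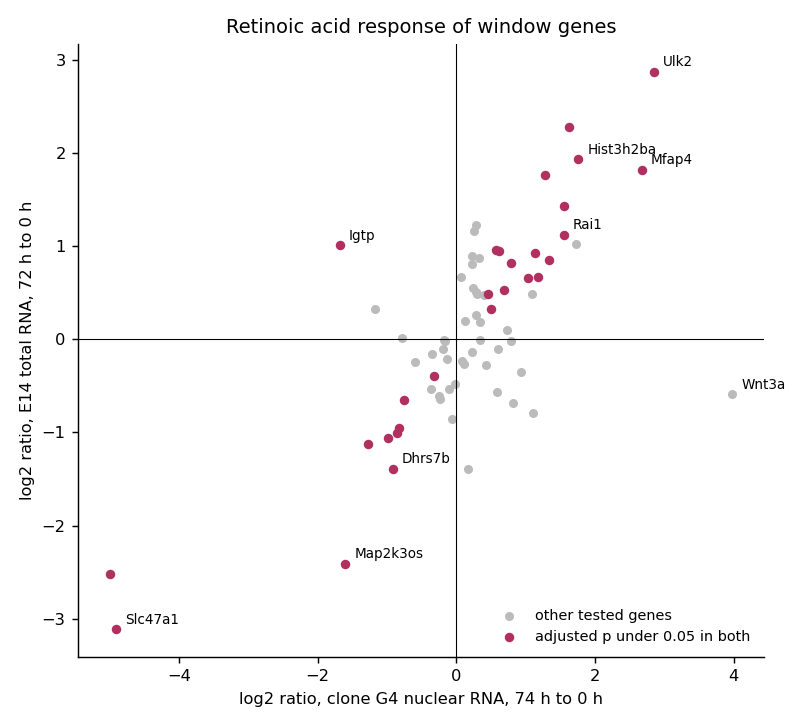
Fitted log2 change of each member with RA in E14 total RNA (72 h against 0 h, vertical axis) and in G4 nuclear RNA (74 h against 0 h, horizontal axis), for the 71 members tested in both. Red points were called in both sets and grey points were not. Aldh3a1 is drawn at -5 on the horizontal axis because it had 0 reads in both G4 libraries at 74 h. Ulk2 lies at 2.85 in G4 and 2.87 in E14, Slc47a1 at -4.90 and -3.11, and Igtp is the red point with opposite signs.

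The 2 wild-type sets, which share no libraries, can be set side by side. Of 71 members tested in both, 45 were called in E14 and 38 in G4, and 28 were called in both, which is 62.2% of the E14 calls and 73.7% of the G4 calls. Over all genes these shares were 71.5% and 75.2%. Of the 28, 27 (96.4%) changed in the same direction, and Igtp was the exception. Over all genes 6215 of the 6353 called in both sets (97.8%) did so. Igtp fell by 1.68 in G4 (SE 0.49, adjusted p = 0.00457) and rose by 1.01 ± 0.31 in E14 (adjusted p = 0.00653).

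Ulk2, the autophagy-initiating kinase gene, rose strongly in both. In G4 it went from 15.0 and 13.9 CPM at 0 h to 97.2 and 112 CPM at 74 h, and in E14 from 6.71 and 5.54 CPM at 0 h to 41.4, 37.4, 49.0 and 52.0 CPM at 72 h. No late library overlapped an early one in either set. The log2 changes were 2.85 ± 0.19 in G4 (adjusted p = 5.70e-14) and 2.87 ± 0.21 in E14 (adjusted p = 2.24e-11).

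Slc47a1 fell most among members with reads at each time. In G4 it went from 53.8 and 53.4 CPM to 2.28 and 1.17 CPM, and in E14 from 52.7 and 54.7 CPM to 7.55, 8.55, 6.35 and 1.65 CPM. Early and late libraries were far apart in both sets. The change was -4.90 ± 0.28 in G4 (adjusted p = 1.77e-15) and -3.11 ± 0.30 in E14 (adjusted p = 7.29e-09). Aldh3a1, an aldehyde dehydrogenase gene, went from 2.07 and 0.511 CPM to 0 reads in both G4 libraries at 74 h, and to 0.985, 0, 0.605 and 0 CPM in E14.

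Histone genes rose with RA. Hist3h2ba rose by 1.76 ± 0.21 in G4 and by 1.93 ± 0.28 in E14 (adjusted p = 1.15e-08 and 3.93e-06). Hist3h2a, its neighbour encoding a histone H2A, rose by 1.55 ± 0.26 and 1.43 ± 0.24 (adjusted p = 9.30e-06 and 1.98e-05). Between them lies a transcript of similar length without a gene symbol, which rose by 1.62 ± 0.42 and 2.28 ± 0.36 (adjusted p = 0.00159 and 1.25e-05). Most histone mRNAs carry no poly(A) tail, and these libraries were made by depletion of ribosomal RNA.

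Other members that rose in both sets were Mfap4 (2.67 in G4 and 1.82 in E14), Rai1 (1.55 and 1.12), Mprip (1.14 and 0.93), the zinc finger genes Zfp672 (1.28 and 1.76) and Zkscan17 (1.17 and 0.67), Llgl1 (1.03 and 0.66) and Usp22 (0.62 and 0.95). Members that fell in both were Dhrs7b (-0.92 and -1.39), which acts in ether lipid synthesis, Shmt1 (-0.83 and -0.95), Guk1 (-0.98 and -1.06), B9d1 (-0.85 and -1.01), Mrpl55 (-0.75 and -0.65), Pld6 (-1.28 and -1.12), a mitochondrial surface protein of the piRNA pathway, and the antisense transcript Map2k3os (-1.60 and -2.41). By role, 7 of 15 chromatin genes rose in G4 and 1 fell, and of the 8 metabolic genes 4 fell and 1 rose. None of the 4 mitochondrial genes rose in G4, and 2 fell. Over all genes 28.8% rose and 27.4% fell in G4. The role lists are small and were drawn up with earlier results known, so nothing is read from these counts.

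Wnt3a was called in G4 but not in E14. In G4 its levels were 1.55 and 2.04 CPM at 0 h and 31.1 and 26.3 CPM at 74 h, and in E14 they were 5.27 and 5.11 CPM at 0 h and 1.31, 3.48, 4.23 and 4.95 CPM at 72 h. The G4 libraries rose without overlap, while each E14 library at 72 h was below both at 0 h. The changes were 3.98 ± 0.44 in G4 (adjusted p = 3.52e-09) and -0.59 ± 0.62 in E14 (adjusted p = 0.432), and the difference between the sets, which also differ in RNA fraction, was not tested. Wnt9a rose by 1.73 ± 0.34 in G4 (adjusted p = 7.54e-05), with 1.02 ± 0.52 in E14 (adjusted p = 0.0941).

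Early responses were few. In E14 edgeR called 0 members at 2 h and at 4 h (3 and 6 at an unadjusted p under 0.05, with no other tool run), against 0.497% and 2.44% of all genes. At 6 h Epn2 rose by 0.36 ± 0.10 and Mfap4 fell by 1.26 (SE 0.35), against 3.96% of all genes called. In G4 at 6 h Wnt3a (1.78 ± 0.48), Rai1 (0.64 ± 0.17) and Ulk2 (0.67 ± 0.19) rose, or 4.0% of the members, against 4.92% of all genes.

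Whether the lower level of the deletion clones changed with RA was tested as a difference of responses, the mean change of E3 and H12 from 0 to 74 h minus that of G4. It differs from the contrast that chose the members but uses the same libraries, so its p-values are not independent of that choice. At 74 h 7 members were called, or 9.33%, against 6.90% of all genes, and for 6 of them the change was lower in the deletion clones. These calls depended on the libraries kept. Leaving out a replicate removed it at all times of its clone, which left the groups of that clone without replication. A lower count there cannot tell lost power from the weight of those libraries. Leaving out G4 replicate 1 left 0 calls and leaving out G4 replicate 2 left 2, E3 replicate 2 left 3, H12 replicate 1 left 4 and H12 replicate 2 left 5, while leaving out E3 replicate 1 gave 12. None of the 7 was called under all of the settings tried.

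Kcnj12, a potassium channel gene, was among these 7. At 0 h its levels were 9.83 and 16.9 CPM in G4, 9.82 and 13.4 CPM in E3, and 14.7 and 15.1 CPM in H12, and at 74 h they were 18.9 and 13.9 CPM, 5.79 and 7.30 CPM, and 7.64 and 3.71 CPM. The clones overlapped at 0 h, and both deletion clones were below G4 at 74 h. The difference of responses was -1.41 ± 0.33 (adjusted p = 0.00792). Prpsap2, a regulatory partner of phosphoribosyl pyrophosphate synthetase, had -0.86 ± 0.19 (adjusted p = 0.0038), with 69.1 and 74.7 CPM in G4, 35.5 and 34.5 CPM in E3, and 28.1 and 25.3 CPM in H12 at 74 h.

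Igtp went the other way, with 2.85 ± 0.64 (adjusted p = 0.00505). It fell in G4 from 5.04 and 2.81 CPM to 1.37 and 1.02 CPM. In H12 it had 1.03 and 0.164 CPM at 0 h and 3.90 and 1.29 CPM at 74 h, and in E3 it had 2.18 and 1.69 CPM and then 2.82 and 2.27 CPM. At these levels a library holds few reads of the gene. The other 4 were Slc5a10 (-2.35), Map2k3os (-1.44), the stereocilia myosin gene Myo15 (-1.30) and Zkscan17 (-0.58). At 48 h Kcnj12 alone was called (1.33%, against 0.377%), and from 2 to 24 h 0 members and 0.0% of all genes were called by edgeR at any of the 4 times (0, 6, 1 and 4 members at an unadjusted p under 0.05).

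No member was called after loss of cohesin or after RA in SCC1-mAID cells by the edgeR test. In SCC1-mAID cells 0 of 73 members were called for RA against untreated, auxin against untreated, auxin with RA against RA, auxin with RA against auxin, or the interaction. At an unadjusted p under 0.05 there were 8, 7, 6, 8 and 7 members, and 2.52%, 0.236%, 0.364%, 2.65% and 0.0% of all genes were called. DESeq2 called Aldh3a2 for RA, Kcnj12 and Zfp692 for auxin and Zfp692 for auxin with RA against auxin, and limma called 0 in all 5. The levels of Kcnj12 were 14.9, 14.3 and 16.8 CPM in untreated cells and 7.02, 7.18 and 10.5 CPM with auxin, which did not overlap. Those of Zfp692 were 36.1, 32.0 and 32.2 CPM in untreated cells and 59.7, 42.1 and 57.5 CPM with auxin, and here the auxin libraries were the higher ones without overlap.

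Across the 12 SCC1-mAID libraries Rai1 ranged from 55.8 to 130 CPM (median 81.7), Flcn from 48.0 to 96.4 CPM (median 78.5), and Slc47a1 from 58.7 to 87.7 CPM (median 72.7). Ulk2 ranged from 9.15 to 14.6 CPM (median 11.9) and Wnt9a from 1.98 to 7.09 CPM (median 4.07). The Slc47a1 levels were all above those of G4 (53.8 and 53.4 CPM) and of E3 (23.5 and 20.1 CPM) at 0 h. Their range held both H12 values at 0 h (64.7 and 82.5 CPM). The sets were normalised separately.

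As a further reference outside the clone set, the untreated SCC1-mAID libraries were set against each clone at 0 h, on separately normalised scales and as a comparison chosen after the values were seen. Over 60 members the median log2 ratio was -0.13 in G4, -0.51 in E3 and -0.57 in H12, while other autosomes had 0.04, 0.05 and 0.05. The 34 genes of the flank below had -0.44 in G4, -0.71 in E3 and -0.63 in H12, and the 27 genes of the flank above had 0.03, 0.02 and -0.15. Taken singly, the other 18 autosomes had medians from -0.16 to 0.30 in this comparison. The G4 value of the segment lay within that range, and the G4 value of the flank below lay under it. The 604 genes of chromosome 11 above the upper flank had -0.70 in G4, -0.73 in E3 and -0.66 in H12. All 3 clones thus stood below SCC1-mAID there by a similar amount, which the comparison among clones does not show.

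Genes elsewhere that depend on products of the segment were counted from 3 lists. These use the same contrast as the choice of the members (mean of E3 and H12 against G4, in which 30.6% of all genes were called), so they are descriptions, and the lists were drawn up with earlier results known. Of 16 lipogenic genes activated by SREBP-1, the product of Srebf1, 4 were called lower, namely Fasn (-0.23), Acly (-0.16), Fads1 (-0.23) and Fads2 (-0.21), and Pnpla3 was called higher (0.65). The list's median was -0.06, beside 0.00 over all genes. Without G4 replicate 1 the count was 1 rather than 5, and without H12 replicate 2 it was 3. By clone, 2 of the 16 were called in E3 (12.5%, against 12.8% of all genes) and 7 in H12 (43.8%, against 44.5%). Fasn and Fads2 had -0.07 each in E3, and -0.38 and -0.34 in H12. Acly had -0.11 in E3 and -0.21 in H12, and Fads1 had -0.29 and -0.18.

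Of 14 lysosomal genes driven by TFE3, which folliculin (Flcn) restrains, Rragd (-0.23), Fnip1 (-0.27), Sqstm1 (-0.34) and Hexa (-0.24) were called lower and Atp6v1h (0.20) and Uvrag (0.20) higher, with a list median of 0.07. Fnip1 and Sqstm1 themselves lie 3.7 and 8.0 Mb below the segment, in the lower stretch of the chromosome. Without G4 replicate 1 the count was 2 rather than 6. By clone, 3 of the 14 were called in E3 (21.4%, against 12.8% of all genes) and 9 in H12 (64.3%, against 44.5%). Rragd and Hexa had 0.04 and 0.01 in E3, and -0.49 and -0.50 in H12. Fnip1 and Sqstm1 had -0.21 and -0.29 in E3, and -0.33 and -0.38 in H12. Of 13 Wnt target genes, 8 were called lower and 1, Dkk1 (0.85), higher, with a list median of -0.26. The lower ones included Axin2 (-0.36), Lef1 (-0.41), Tcf7 (-0.55), T (-1.08) and Lgr5 (-0.77), of which Tcf7 lies 5.9 Mb below the segment, as Znrf3 (-0.26) lies 52.8 Mb below it. The 2 clones differed within this list, since Sp5 had 0.28 in E3 and -3.41 in H12.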

How the data were processed

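RNA was sequenced from 79 samples as paired reads after depletion of ribosomal RNA, with Drosophila SG4 cells added for calibration, per the labels' protocols. The submitters' processing notes name STAR, Bowtie2, SAMtools, DESeq2, mm10 and dm6, with no versions. In each table the deposited signal is, from its values, a read count per RefSeq transcript divided by 1 size factor per library. Dividing by the smallest common step gave whole reads (within 0.1) for at least 99.997% of values, and these reads were analysed, since the planned count tests had assumed deposited counts. How the authors derived the size factors, and whether counting used strand, are not given in the sources used here, so reads of overlapping genes on opposite strands cannot be told apart. The deposited start and end positions (unit: other, in bases) came with the tables, per the file headers. The tables also hold 25 per-sample columns that match no sample used here, and 959 rows of the SCC1-mAID table without a gene name were left out.

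Each table was fitted whole with edgeR 4.0.16 in R 4.3.3 (TMM scaling, filterByExpr, 1 mean per group, robust quasi-likelihood fit), on 15913 genes in the clones, 15084 in E14 and 14012 in SCC1-mAID. P-values were adjusted over all genes by Benjamini-Hochberg, and a call is an adjusted p under 0.05. Errors are standard errors from the fit. Library medians used the log2 CPM of edgeR with a prior count of 0.5 reads, scaled to library size. The code was tested on simulated counts. Alternatives were DESeq2 1.42.0 (size factors and Wald test), limma 3.58.1, the authors' scaling, no filter, another choice of transcript, a replicate block and leaving out each replicate. In the clones a replicate left out was removed at all times of its clone. The series text calls the E14 samples biological replicates. For the other sets no source says that libraries came from separate cultures.

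Members and gene lists were chosen with earlier results of these data known. Genes named were members of fixed role lists, the 5 members with the lowest and the 5 with the highest mean ratio to G4 (of those with a G4 mean of at least 1 CPM), the 5 most abundant per length, the 5 called members with the largest change with RA in each direction in each wild-type set, members called between E3 and H12 or in the difference of responses, and genes at the segment's ends. Other members that were called with RA in both wild-type sets, and the examples in SCC1-mAID, were named after their values were seen.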

Additional observations from a re-analysis of the deposited data

Results flagged for a closer look

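Of 55 groups of libraries examined for a value far from the rest, 2 held one, where chance gives about 1 in 20. At 72 h 1 E14 library had a segment median of 0.31, apart from the other 3. At 4 h 1 E14 library had 93.7 CPM of Dhrs7b, apart from its group.

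The remaining results differed between groups under the same contrast, each by the edgeR tests described above. Between E3 and H12 these were Slc47a1 (-1.32), Trim17 (-1.24), Drc3 (-1.10), Slc47a2 (-0.59), Tom1l2 (-0.44), B9d1 (-0.39), Natd1 (-0.34), Map2k3 (-0.33), Pemt (-0.31), Aldh3a2 (-0.28), Zfp672 (-0.27), Snap47 (-0.25), Usp22 (-0.16) and Epn2 (-0.14), with E3 lower. With H12 lower they were Wnt9a (1.01), Igtp (0.90), Wnt3a (0.81), Rai1 (0.63), 4933439C10Rik (0.35), Specc1 (0.23) and Flii (0.20). In the response at 74 h, deletion clones against G4, they were Igtp (2.85), Slc5a10 (-2.35), Map2k3os (-1.44), Kcnj12 (-1.41), Myo15 (-1.30), Prpsap2 (-0.86) and Zkscan17 (-0.58). Igtp is the only gene in both lists, and with at most 5.23 CPM in any clone library it rests on few reads.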

How the results depend on the processing

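The segment median kept its sign under all alternatives run, from -0.54 to -0.48 in E3 and from -0.53 to -0.44 in H12. The 5 Mb flanks in H12 gave -0.13 rather than -0.20 when the ratio was taken of summed CPM. Of the 21 calls between E3 and H12, 13 held in every setting, and 4933439C10Rik, Epn2, Flii, Pemt, Specc1, Trim17, Usp22 and Zfp672 did not. The count of members called in the difference of responses at 74 h ran from 0 to 12 when 1 replicate was left out, and was 12 with a replicate block. Leaving out 1 replicate gave 24 to 39 members called in G4 at 74 h, 1 to 6 SREBP-1 targets, 2 to 8 TFE3 targets and 0 to 1 members for auxin. In SCC1-mAID cells DESeq2 called 1 member for RA (Aldh3a2) and 2 for auxin (Kcnj12 and Zfp692), no filter gave 1 for auxin (Kcnj12), and a replicate block gave 1 for RA (Rai1), where edgeR called 0. The cause of these changes was not tested. No result reversed. The main fit did not pair samples by replicate number. Same-numbered samples correlated above 0.1 in 142 of 420 pairs in the clones, 23 of 67 in E14 and 10 of 18 in SCC1-mAID. Their median correlations were 0.06, 0.06 and 0.14, against -0.06, -0.01 and -0.08 for other pairs. In E14 the 0 h group held only replicates 3 and 4. Specc1 at 2 h had 101 and 82.5 CPM in replicates 1 and 2, and 51.8 and 52.2 CPM in replicates 3 and 4. Apart from the replicate block, the part of replicate number in the E14 contrasts was not tested. The replicate block changed no other count of calls by over 1.5 times. With 2 libraries per clone and time, and members under 2 CPM among those compared, small differences at single times were not detectable at this depth.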
